A study of Homo sapiens with 5 samples.

Results

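The genes described here encode the channels, pump and sensor that fill and empty the calcium store of the endoplasmic reticulum, together with the mitochondrial proteins that take up the calcium released from it. They are 9 genes of the 16677 in the count table: the 3 inositol trisphosphate (IP3) receptors ITPR1, ITPR2 and ITPR3, the pump ATP2A2, the sensor STIM1, the plasma membrane channel ORAI1, and the mitochondrial genes MCU, MICU2 and VDAC1. They were chosen by function and matched by symbol, and all 9 were present and passed the filter on low counts. The choice was made with results of the same comparison in view, so the differences between groups are given for these genes as a description. The counts of genes past a threshold in the fit across all genes are printed as background and support nothing about the 9.

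Messenger RNA was sequenced from the human cell line HEK293, derived from embryonic kidney, grown with no treatment. There were 2 wild-type libraries (labelled Control) and 3 libraries labelled rs11607019, a T-to-C variant that the series places in SIRT3, the gene of a mitochondrial deacetylase. The groups share the cell line and the culture condition, and the comparison asks how the transcriptome differs with the variant. The labels do not say whether libraries of a group were separate clones or repeat cultures, so the spread between libraries may be technical, and the zygosity of the change is not given in the sources used here.

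As background, cell surface receptors activate phospholipase C, which releases IP3 from a membrane lipid. IP3 opens its receptors in the membrane of the endoplasmic reticulum, and calcium leaves the store. The receptors assemble as tetramers and can mix within a tetramer. They differ in their affinity for IP3 and in how calcium and ATP regulate them. The pump SERCA returns calcium to the store, and when the store is low STIM1 opens ORAI1 at the plasma membrane. Where the reticulum touches mitochondria, released calcium passes VDAC1 in the outer membrane and the uniporter in the inner membrane.

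Library totals ran from 17122569 to 17596084 counts. Levels are CPM values, which are counts scaled to library size, after normalisation by TMM (trimmed mean of M-values), which corrects for library composition. Of the 8 markers listed for HEK293, 4 were rows of the table, namely KRT8, KRT18, VIM and LIN28B, and KRT8 stood between 226 and 371 CPM. NEFL, NEFM, INA and CDH2 were not rows of it. Of the 23 markers of other cell types, 3 were in the table, COL1A1 at 28.4 to 46.3 CPM, COL3A1 at 1.26 to 2.65 CPM and ACTA1 at 1.52 to 3.76 CPM. The deviation of a library from the mean of the 5 libraries tracked transcript GC content to a varying degree. Its Spearman correlation with GC over 16199 genes, taken as a description since genes are no replicates, was −0.429 and 0.0439 for the wild-type libraries and −0.109, 0.230 and 0.368 for variant 1, variant 2 and variant 3. The correlation of this deviation with transcript length was −0.0551 and −0.141 for the wild-type libraries. For variant 1, variant 2 and variant 3 it was 0.258, 0.0837 and −0.187.

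Of the 9 genes, ITPR3 was the one that stood far apart between the groups. Its mean was 48.1 ± 5.21 CPM in wild type (SD, n = 2) and 145 ± 62.1 CPM in the variant (SD, n = 3), a 3.01-fold higher level. The other 8 genes had log2 fold changes (variant over wild type) between −0.17 and 0.11. Over the 9 genes the median log2 fold change was −0.02, and over all 16310 tested genes it was 0.00300. With the level of ITPR3, its share among the IP3 receptor counts was higher, from 37.9% ± 6.90 (SD, n = 2) in wild type to 63.6% ± 15.6 (SD, n = 3) in the variant. In RNA from whole cultures, a change in the number of cells that express a gene and a change in RNA per cell cannot be told apart.

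By the quasi-likelihood test of edgeR, 0 of 16310 tested genes (0%) passed an adjusted p of 0.05, and so 0 of the 9. An unadjusted p under 0.05 was reached by 1243 genes (7.62%; 4.11% higher and 3.51% lower in the variant) and by 1 of the 9, ITPR3. That background count depends on single libraries: it was 549 of 16449 genes without wild-type 1 and 765 of 16167 without variant 2, but 1441 of 16502 without wild-type 2 and 1618 of 16181 without variant 3. The Wald test of DESeq2 called 32 of 16310 tested genes at an adjusted p under 0.05, 25 higher and 7 lower. ITPR3 was the only one of the 9 among them, and limma-voom called 0. Groups without overlap were found for 2 of the 9 genes, ITPR3 (higher in the variant) and MCU (lower). Such groups were found for 24.8% of all tested genes. As shares of all tested genes, 11.8% were higher in this way and 13.0% lower. Because the same comparison was in view when the genes were chosen, nothing is read from these counts.

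**Figure D1:**
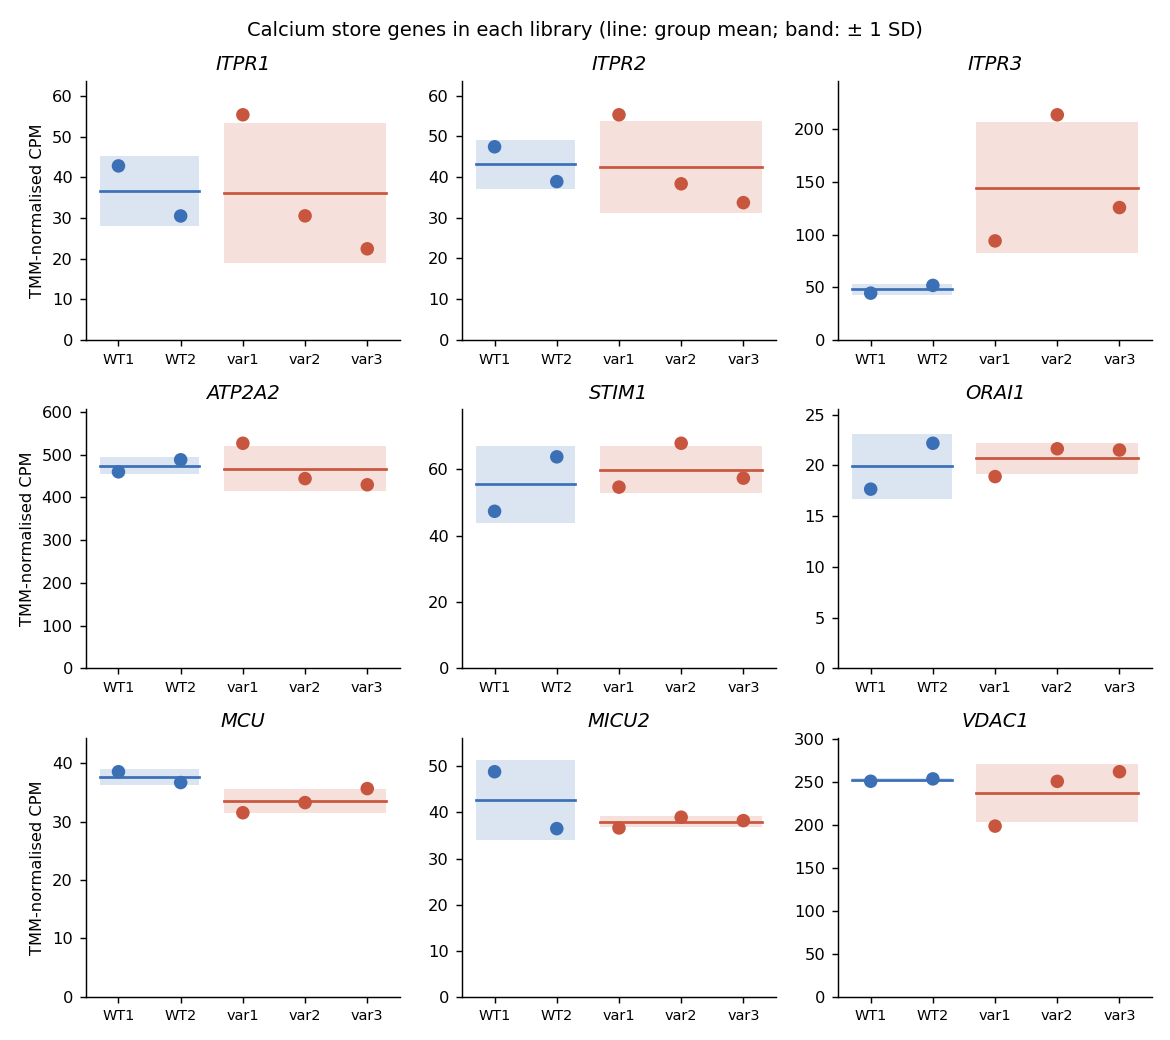
Each panel shows 1 gene, with a point for each library (blue, wild type; red, variant), its TMM-normalised CPM on the vertical axis, the group mean as a line and 1 SD either way as a band. ITPR3 stands between 94.1 and 214 CPM in the variant libraries and at 44.4 and 51.8 CPM in wild type, while in the panels of the other genes except MCU the points of the groups overlap.

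The promoters of ITPR3 and ITPR1 are shown because these are receptor genes with unlike patterns across the libraries. Promoter sequences from RefSeq (GRCh38.p14), from 250 bases before to 50 bases after a transcript start, were found for 7 of the 9 genes, with none for ITPR2 and ORAI1. The ITPR3 window is chr6:33621072-33621371 and the ITPR1 window is chr3:4493098-4493397, both on the forward strand. Capitals mark matches to the GC box GGGCGG, the sequence bound by Sp1-type factors.
ITPR3: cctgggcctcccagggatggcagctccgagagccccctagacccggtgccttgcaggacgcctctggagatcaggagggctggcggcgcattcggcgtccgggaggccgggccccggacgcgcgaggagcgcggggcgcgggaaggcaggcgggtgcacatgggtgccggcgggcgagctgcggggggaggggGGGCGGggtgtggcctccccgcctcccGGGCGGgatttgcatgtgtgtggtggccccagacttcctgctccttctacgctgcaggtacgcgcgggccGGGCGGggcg
ITPR1: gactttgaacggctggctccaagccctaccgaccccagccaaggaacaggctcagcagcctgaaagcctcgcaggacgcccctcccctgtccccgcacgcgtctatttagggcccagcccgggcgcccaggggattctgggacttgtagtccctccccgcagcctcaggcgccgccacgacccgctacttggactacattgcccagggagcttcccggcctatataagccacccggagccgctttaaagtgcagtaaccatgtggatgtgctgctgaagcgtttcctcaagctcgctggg
The ITPR3 window had 76.0% GC, more than 92.2% of the 35116 windows in the RefSeq set, and 33 CpG dinucleotides. The ITPR1 window had 63.3% GC and 19 CpG dinucleotides, nearer to the medians of 58.7% and 14 over all windows. GGGCGG, searched on both strands, occurred 3 times in the ITPR3 window, with first bases at −57, −30 and 41 counted from the transcript start, and 0 times in the ITPR1 window. Of all windows, 45.0% held it. TATAAA (held by 11.5% of all windows) and CCAAT (held by 34.6%), also searched on both strands, had 0 matches in either window. These are matches of letters, not measured binding sites.

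ITPR3 (ENSG00000096433, chromosome 6, 33620365 to 33696574, forward strand of GRCh38 in GENCODE release 29) encodes the type 3 IP3 receptor, the form typical of epithelial and secretory cells. It had 762 and 908 counts in the wild-type libraries, and 1628 in variant 1, 3727 in variant 2 and 2227 in variant 3. In CPM the wild-type libraries stood at 44.4 and 51.8, and the variant libraries at 94.1, 214 and 126. Every variant library was above both wild-type libraries, and the lowest variant library stood 1.82-fold above the higher wild-type library. The variant libraries also differed from each other, by 2.27-fold between the highest, variant 2, and the lowest, variant 1. The wild-type libraries differed by 1.17-fold.

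The log2 fold change of ITPR3 was 1.59 (SE 0.32, 95% confidence interval 0.88 to 2.30). ITPR3 was chosen with this comparison in view, so the interval describes the fit and is not a test. Leaving out variant 2, the highest library, gave a log2 fold change of 1.19, and leaving out variant 1 gave 1.82. ITPR3 transcripts are rich in GC, at 59.1% for the longest coding transcript. A correction of each library for GC content and transcript length gave 1.33. Of the 10412 tested genes with a mean of at least 10 CPM, 9 had a log2 fold change of 1.59 or more, with ITPR3 counted among them. A high place follows in part from the way the genes were chosen, so nothing is read from it.

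The last 2282 bases of ITPR3, from 33694293 to 33696574, overlap UQCC2, an assembly factor gene of respiratory complex III that is read from the opposite strand. Of the 50-base windows of the longest ITPR3 coding transcript, 9.48% were also in UQCC2 transcripts. Whether counting took account of strand is not given in the sources used here, so reads from this stretch may not be told apart. UQCC2 had 1594 and 1302 counts in the wild-type libraries and 1585, 1526 and 1968 in the variant libraries. Its levels overlapped between the groups, with a log2 fold change of 0.21 (SE 0.18).

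The neighbourhood of ITPR3 on chromosome 6 was also set beside it. BAK1, the nearest tested gene on the other side and the gene of a pro-apoptotic mitochondrial protein, had 33.8 and 33.6 CPM in wild type and 37.5, 40.1 and 41.8 CPM in the variant, with a log2 fold change of 0.24 (SE 0.17). Among the 20 tested genes around ITPR3 the median log2 fold change was 0.23, and the groups did not overlap at 11 genes that were higher in the variant and 1 that was lower, where 11.8% of all tested genes were higher and 13.0% lower in this way. Over the 862 tested genes of chromosome 6 the median was 0.12. More of the neighbours were thus higher than lower in the variant, and none of the 20 reached the difference of ITPR3: the largest was 1.03, for GRM4. The median log2 deviation of the 20 neighbours from the 5-library mean was −0.12 and −0.15 in the wild-type libraries and 0.00227, 0.08 and 0.27 in variant 1, variant 2 and variant 3. In the same order ITPR3 itself deviated by −1.01 and −0.79, and by 0.07, 1.25 and 0.49. Both were below the mean in wild type and above it in the variant, while the highest library was variant 3 for the neighbours and variant 2 for ITPR3. The part of the neighbourhood in the ITPR3 result was not tested.

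**Figure D2:**
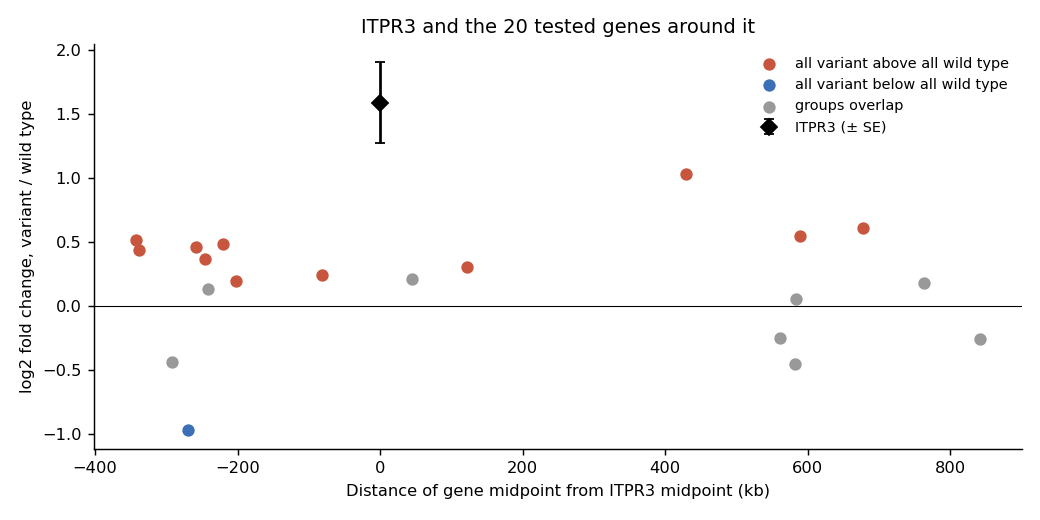
Each point is 1 tested gene, placed by the distance of its midpoint from that of ITPR3 in kilobases, with its log2 fold change (variant over wild type) on the vertical axis; colours give whether the groups overlap, and the diamond is ITPR3 with its SE. ITPR3 at 1.59 lies above all of the 20 neighbours, whose values run from −0.97 to 1.03.

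ITPR1 (ENSG00000150995, chromosome 3, 4493345 to 4847840, forward strand) encodes the type 1 receptor, the main form in neurons. It stood at 42.8 and 30.5 CPM in wild-type 1 and wild-type 2, and at 55.4, 30.5 and 22.4 CPM in variant 1, variant 2 and variant 3. The highest and the lowest library were both variant libraries, 2.47-fold apart, and the groups overlapped. The group means were 36.7 ± 8.72 CPM (SD, n = 2) and 36.1 ± 17.2 CPM (SD, n = 3), with a log2 fold change of −0.02 and a 95% confidence interval of −0.79 to 0.75. An interval this wide leaves room for a difference in either direction, and the estimate was −0.47 without variant 1 and 0.24 without wild-type 1. BHLHE40, the next tested gene after ITPR1 and the gene of a transcriptional repressor of the circadian clock, stood at 67.0 and 67.1 CPM in wild type and at 114, 92.1 and 103 CPM in the variant. Its groups did not overlap, with a log2 fold change of 0.62 (SE 0.16; edgeR adjusted p = 0.616), unlike those of ITPR1.

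ITPR2 (ENSG00000123104, chromosome 12, 26336515 to 26833198, reverse strand) encodes the type 2 receptor, the main form in liver and heart. It stood at 47.4 and 38.9 CPM in wild type and at 55.3, 38.3 and 33.7 CPM in the variant. As for ITPR1, variant 1 was the highest library and variant 3 the lowest. These libraries also had the highest and lowest correlation with transcript length, 0.258 and −0.187. The longest coding transcripts of ITPR1 and ITPR2 have 10197 and 11405 bases. The part of transcript length in the likeness of the 2 genes was not tested. The log2 fold change of ITPR2 was −0.02 (95% confidence interval −0.54 to 0.49). The 20 tested genes around it had a median of −0.37, and 8 of them were lower in the variant without overlap between the groups, against 13.0% of all tested genes. The median over the 880 tested genes of chromosome 12 was −0.07. The ratio of ITPR1 to ITPR2 lay between 0.665 and 1.002 in all 5 libraries. The ratio of ITPR3 to ITPR2 was 0.936 and 1.33 in wild type and 1.70, 5.58 and 3.73 in the variant.

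The share of each receptor gene in the IP3 receptor counts followed from these levels. These are shares of RNA counts, and receptor protein is not in these data. ITPR3 took 33.0% of the IP3 receptor counts in wild-type 1 (95% Wilson interval 31.1 to 34.9, 2311 counts) and 42.7% in wild-type 2 (40.6 to 44.8, 2125 counts). It took 45.9% in variant 1 (44.3 to 47.6, 3544 counts), 75.6% in variant 2 (74.4 to 76.8, 4927 counts) and 69.1% in variant 3 (67.5 to 70.7, 3221 counts). These intervals cover counting error within a library only, not the spread between libraries. The reads carry no molecular identifiers, so repeated reads of 1 molecule cannot be told apart and the intervals may be too narrow. Each variant library had a larger ITPR3 share than each wild-type library, but variant 1 was close to wild-type 2, and their intervals overlapped. The distance from variant 1 to variant 2 was larger than that from wild-type 2 to variant 1.

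The difference of the mean ITPR3 share was 25.7 percentage points, with a pooled SD over libraries of 13.4 points. Dividing the counts by transcript length gave shares of 40.0% ± 7.11 (SD, n = 2) and 65.5% ± 15.4 (SD, n = 3). The mean ITPR1 share of counts was 28.5% ± 4.69 (SD, n = 2) and 16.7% ± 8.98 (SD, n = 3), and that of ITPR2 was 33.7% ± 2.21 (SD, n = 2) and 19.7% ± 6.80 (SD, n = 3). The summed level of ITPR1 and ITPR2 was 79.8 ± 14.8 CPM in wild type (SD, n = 2) and 78.6 ± 28.6 CPM in the variant (SD, n = 3). The sum over the 3 receptor genes was 128 ± 9.55 CPM in wild type (SD, n = 2) and 223 ± 52.9 CPM in the variant (SD, n = 3). The larger sum of receptor RNA thus lay with ITPR3.

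**Figure D3:**
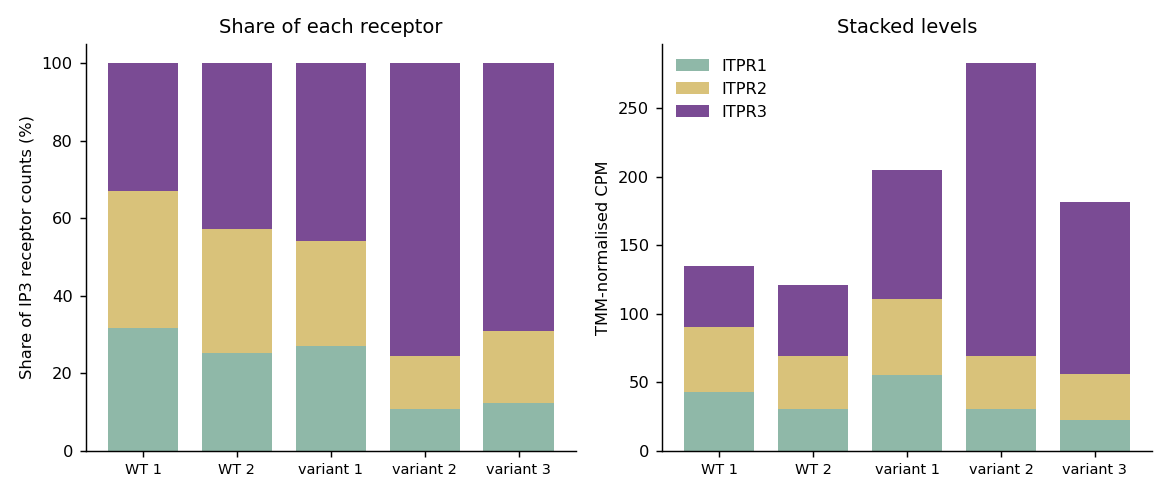
The bars at left give the share of each IP3 receptor gene in the receptor counts of a library, in percent, and those at right stack the levels of the same genes in TMM-normalised CPM, for the 2 wild-type and 3 variant libraries. The ITPR3 part goes from 33.0% and 42.7% in wild type to 45.9%, 75.6% and 69.1% in the variant, while the stacked ITPR1 and ITPR2 parts lie between 56.1 and 111 CPM.

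The genes with the most similar profiles were looked up for each receptor by the root-mean-square difference of log2 CPM, each gene centred on its own mean, over the 5 libraries and among the 10412 genes with a mean of at least 10 CPM. For ITPR3 they were HTRA1 (0.298), a secreted serine protease, MMP15 (0.318), a membrane-type matrix metalloproteinase, and ARMCX6 (0.341). For ITPR1 they were SLC5A3 (0.0688), a myo-inositol transporter, GALNT18 (0.107) and ZFHX4 (0.115). For ITPR2 they were HYCC1 (0.0272), MED13 (0.0398) and ZFYVE16 (0.0406). ITPR1 and ITPR2 differed from each other by 0.200, while ITPR3 differed from ITPR1 by 1.08 and from ITPR2 by 0.954. Among the genes most like ITPR1, ITPR2 ranked 76 and ITPR3 10357. Among those most like ITPR2, ITPR1 ranked 1760 and ITPR3 10360, so many other genes were closer than the receptors were to each other. A gene with a flatter profile has more close matches, and the spread of ITPR3 about its own mean was 0.833 against 0.450 for ITPR1 and 0.252 for ITPR2.

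ATP2A2 (ENSG00000174437, chromosome 12, 110280756 to 110351093), which encodes SERCA2, the housekeeping pump that refills the store, stood at 460 and 488 CPM in wild type and at 527, 444 and 430 CPM in the variant. The variant libraries lay on both sides of the wild-type libraries. Its log2 fold change was −0.02 (95% confidence interval −0.34 to 0.30). The ratio of ATP2A2 to the summed receptors was 3.72 ± 0.434 in wild type (SD, n = 2) and 2.17 ± 0.528 in the variant (SD, n = 3), on the CPM scale and without correction for length, and it follows the level of ITPR3.

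STIM1 (ENSG00000167323, chromosome 11, 3854527 to 4093210), the sensor of store calcium, stood at 47.4 and 63.8 CPM in wild type and at 54.7, 67.9 and 57.4 CPM in the variant. Wild-type 1 was the lowest library and variant 2 the highest, and the groups overlapped. The log2 fold change was 0.11 (95% confidence interval −0.31 to 0.53), and without wild-type 2 it was 0.34. ORAI1 (ENSG00000276045, chromosome 12, 121626550 to 121642677), the pore subunit that STIM1 opens, stood at 17.7 and 22.2 CPM in wild type and at 18.9, 21.6 and 21.5 CPM in the variant. Its log2 fold change was 0.05 (95% confidence interval −0.39 to 0.50). Neither gene of this entry pathway therefore had a difference larger than the spread between wild-type libraries, which were 1.35-fold apart for STIM1 and 1.26-fold apart for ORAI1.

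MCU (ENSG00000156026, chromosome 10, 72692131 to 72887694), the pore of the mitochondrial uniporter, stood at 38.6 and 36.7 CPM in wild type and at 31.6, 33.3 and 35.7 CPM in the variant. All variant libraries were below both wild-type libraries, and the distance between wild-type 2 and variant 3 was small. The log2 fold change was −0.17 (95% confidence interval −0.54 to 0.21). MICU2 (ENSG00000165487, chromosome 13, 21492691 to 21604214), a regulatory subunit that helps to keep the uniporter closed at resting calcium, stood at 48.8 and 36.5 CPM in wild type and at 36.6, 39.0 and 38.2 CPM in the variant. Its log2 fold change was also −0.17 (95% confidence interval −0.58 to 0.24), and it rested on wild-type 1, since it was 0.06 without that library and −0.36 without wild-type 2. The ratio of MCU to MICU2 was 0.898 ± 0.153 in wild type (SD, n = 2) and 0.883 ± 0.0439 in the variant (SD, n = 3).

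VDAC1 (ENSG00000213585, chromosome 5, 133971915 to 134005133), the main channel of the outer mitochondrial membrane, stood at 251 and 254 CPM in wild type and at 199, 251 and 262 CPM in the variant. Variant 1 was lower than the other 4 libraries, and the others lay close together. The log2 fold change was −0.09 (95% confidence interval −0.44 to 0.26). Its level is uncertain, because 19.9% of the 50-base windows of its longest coding transcript were also in transcripts of 8 other genes, with VDAC1P1 sharing the most. That share was 0.729% for ITPR1, 0.678% for ITPR2 and 0.720% for STIM1, and 0 windows were shared for ATP2A2, ORAI1, MCU and MICU2.

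Levels of different genes were compared per kilobase of the longest coding transcript. In wild type VDAC1 was highest at 129 ± 0.994 CPM per kb (SD, n = 2), followed by ATP2A2 at 106 ± 4.48. MICU2 came next at 22.2 ± 4.55, and then ORAI1 at 13.3 ± 2.14, STIM1 at 12.8 ± 2.67 and MCU at 11.7 ± 0.408, which did not differ beyond their spread. The receptors were lowest, with ITPR3 at 4.87 ± 0.528, ITPR2 at 3.79 ± 0.530 and ITPR1 at 3.60 ± 0.855 CPM per kb (SD, n = 2). In the variant ITPR3 stood at 14.7 ± 6.29 CPM per kb (SD, n = 3), and its spread took in ORAI1 (13.8 ± 1.04), STIM1 (13.8 ± 1.61), MCU (10.4 ± 0.645) and MICU2 (19.8 ± 0.622), while ITPR1 and ITPR2 remained lowest at 3.54 ± 1.69 and 3.72 ± 0.997. VDAC1 (121 ± 17.3) and ATP2A2 (105 ± 11.8) overlapped in the variant.

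**Figure D4:**
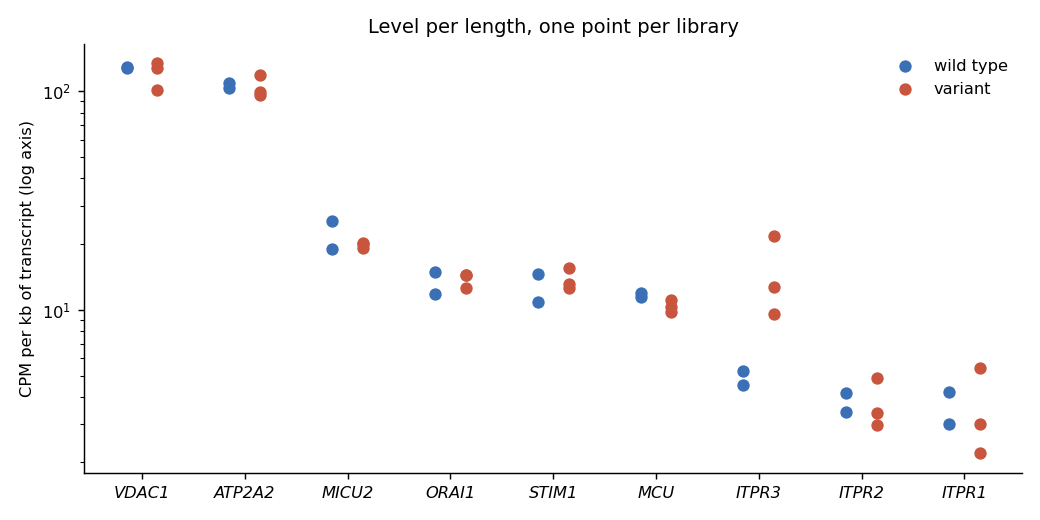
The vertical axis is the level in CPM per kilobase of transcript on a log axis, and each point is 1 library (blue, wild type; red, variant), with genes ordered by their wild-type mean. ITPR3 stands with ITPR2 and ITPR1 at the low end in wild type, at 4.50 and 5.25 CPM per kb, and between 9.53 and 21.7 CPM per kb in the variant.

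The rest of the calcium handling system was described with 9 lists written by function, of which 108 of 129 genes were in the table and tested. After adjustment over all genes, 0 of these 108 passed in edgeR's test, and also 0 with DESeq2 and with limma-voom. At an unadjusted p under 0.05 there were 8 (7.41%), 3 higher and 5 lower, against 7.62% of all tested genes. That count was 13 without wild-type 2, 12 without variant 3, 4 without variant 2 and 1 without wild-type 1, and 1 with GC content and transcript length corrected for. The counts over all genes moved too, to 1066 of 16199 with that correction and, when a library was left out, as given above. The groups did not overlap at 19 genes (17.6%), 5 higher and 14 lower, where the share of all tested genes was 24.8%, with 11.8% higher and 13.0% lower. The median log2 fold change was 0.00411, with 57 values above 0 and 51 below. None of the 108 had a log2 fold change as large in size as that of ITPR3, and the largest, 1.01, belonged to RYR1.

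Upstream of the receptors, 21 genes that make or remove IP3 had a median log2 fold change of 0.05. GNA11, a G protein alpha subunit that activates phospholipase C beta, was the most abundant per length at 49.5 CPM per kb. It stood at 183 ± 24.2 CPM in wild type (SD, n = 2) and at 220 ± 24.3 CPM in the variant (SD, n = 3), with a log2 fold change of 0.27 (SE 0.16; edgeR adjusted p = 0.703). The groups did not overlap at 1 gene, IMPA1, an inositol monophosphatase, with 43.3 and 27.2 CPM in wild type and 25.4, 22.4 and 25.8 CPM in the variant. The log2 fold change stood at −0.52 (SE 0.22; edgeR adjusted p = 0.639), and wild-type 1 was far above the other 4 libraries.

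Other release channels and receptor partners numbered 17, with a median log2 fold change of 0.15. RYR1, a ryanodine receptor known from skeletal muscle, had 117 and 221 counts in wild type and 215, 337 and 478 counts in the variant, so its groups overlapped, and its adjusted p in edgeR's test was 0.616. TMCO1, a store overload channel, had 156 and 124 CPM in wild type and 112, 89.0 and 114 CPM in the variant, with a log2 fold change of −0.42 (SE 0.17; edgeR adjusted p = 0.635). ITPRIPL2, a relative of an IP3 receptor interacting protein, had 21.3 and 22.0 CPM in wild type and 25.4, 36.2 and 23.4 CPM in the variant (edgeR adjusted p = 0.700). CALM3, 1 of the 3 calmodulin genes, was the most abundant per length at 320 CPM per kb and had a log2 fold change of −0.08 (SE 0.14).

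On the refilling side, 6 further pump and regulator genes had a median log2 fold change of −0.10. C4orf3, which encodes a small peptide that binds SERCA, had 76.5 and 66.1 CPM in wild type and 60.5, 53.04 and 56.2 CPM in the variant, a log2 fold change of −0.33 (SE 0.16; edgeR adjusted p = 0.657). TMEM165, a Golgi ion transporter, was the most abundant of them per length at 33.4 CPM per kb, with a log2 fold change of −0.12 (SE 0.17). Among 11 genes of store-operated entry the median was −0.02. SARAF, which switches entry off when the store is full, was the most abundant per length and the one gene whose groups did not overlap, at 121.4 and 138.8 CPM in wild type and 111.9, 98.97 and 120.7 CPM in the variant. Its adjusted p in edgeR's test was 0.726.

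Calcium-binding proteins inside the store numbered 12, with a median log2 fold change of −0.07. CALR, the main calcium buffer of the store, was the most abundant per length at 430 CPM per kb. It had 811 ± 159 CPM in wild type (SD, n = 2) and 825 ± 199 CPM in the variant (SD, n = 3). NUCB2 and CALU, further calcium-binding proteins of the secretory pathway, had groups that did not overlap, with log2 fold changes of −0.30 (SE 0.16) and −0.22 (SE 0.16) and adjusted p values of 0.690 and 0.735 in edgeR's test.

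For the mitochondrion, 13 other uptake and release genes had a median log2 fold change of −0.03. Groups without overlap were found for 5 of the 13 (38.5%), 2 higher and 3 lower, where 24.8% of all tested genes had such groups. With 13 genes this difference in share was not tested. MCUB, a uniporter subunit that lowers its activity, had 39.7 and 33.6 CPM in wild type and 25.4, 25.3 and 28.5 CPM in the variant, with a log2 fold change of −0.47 (SE 0.18; edgeR adjusted p = 0.616). VDAC3 had 185 and 147 CPM in wild type and 113, 134 and 136 CPM in the variant (edgeR adjusted p = 0.646). GHITM, a protein of the inner mitochondrial membrane, was the most abundant per length at 156 CPM per kb and had a log2 fold change of −0.03 (SE 0.14).

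At the contacts between the reticulum and mitochondria, 12 genes had a median log2 fold change of 0.06. PACS2, a sorting protein that maintains these contacts, had 58.3 and 52.1 CPM in wild type and 86.8, 105 and 61.2 CPM in the variant, a log2 fold change of 0.61 (SE 0.23; edgeR adjusted p = 0.616). PARK7, a redox-sensing chaperone, was the most abundant per length at 298 CPM per kb and had groups that did not overlap, with a log2 fold change of −0.19 (SE 0.14). Among 5 genes of calcium export at the plasma membrane the median was 0.07, and BSG, a chaperone subunit of the export pumps, was the most abundant per length at 485 CPM per kb, with a log2 fold change of 0.07 (SE 0.16). Among 11 genes of calcineurin and NFAT, the phosphatase and transcription factors that respond to calcium, the median was 0.00275. Within that list PPP3R1 and PPP3CC, calcineurin subunits, had groups that did not overlap, with log2 fold changes of −0.29 (SE 0.16) and −0.18 (SE 0.20) and adjusted p values of 0.682 and 0.840 in edgeR's test. RCAN1, a calcineurin inhibitor and known target of NFAT, was the most abundant per length at 18.04 CPM per kb and had a log2 fold change of −0.10 (SE 0.18).

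**Figure D5:**
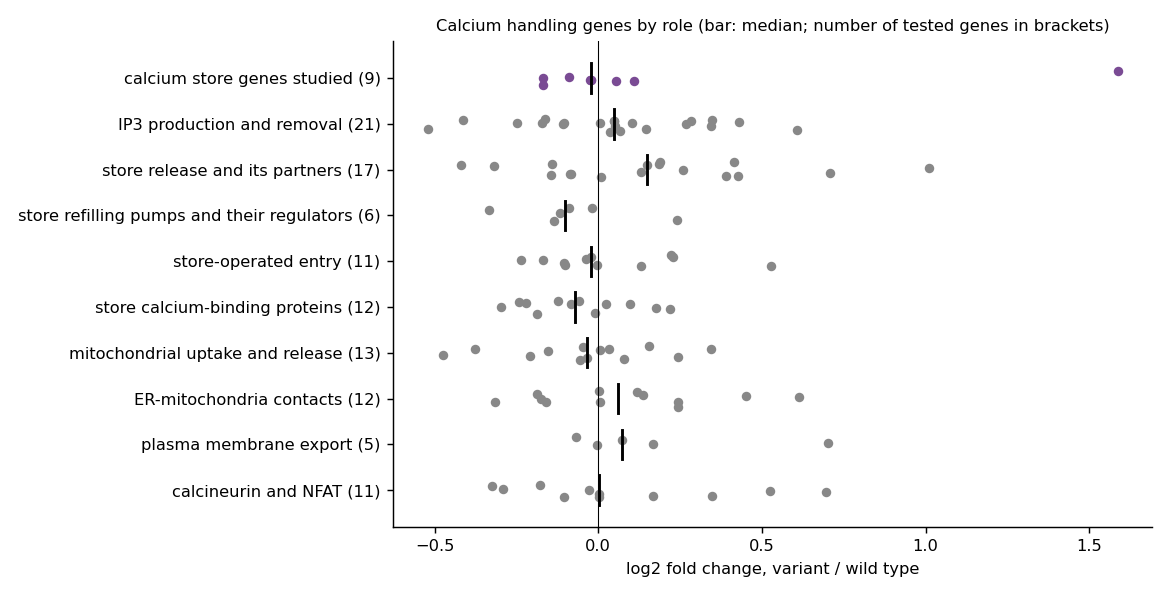
Each point is 1 tested gene, with its log2 fold change (variant over wild type) on the horizontal axis and its list by row; the black bar is the median of the row and the number in brackets its count of genes. ITPR3 at 1.59 lies to the right of every other gene shown, and the medians of the rows lie between −0.10 and 0.15.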

How the data were processed

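The authors deposited 1 table of raw read counts per Ensembl gene for 5 libraries. The submitters' processing notes name HISAT2, SAMtools, HTSeq and build hg38, without versions or settings, and the annotation is not given in the sources used here. Per the labels' protocols, reads were single-end, of 50 bases, from a strand-specific library. The lowest count in the table is 3. Of 16677 identifiers, 16627 were named from a gene name table. Positions, lengths and GC content came from GENCODE release 29 (GRCh38).

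filterByExpr kept 16310 genes (97.8%). Counts were scaled by TMM and tested with the quasi-likelihood test of edgeR 4.0.16 (robust, R 4.3.3), with Benjamini-Hochberg adjustment over all tested genes and a threshold of 0.05. Alternatives used DESeq2 1.42.0, limma 3.58.1, other scalings, no filter, a replicate block, a spline correction for GC content and transcript length (5 degrees of freedom) and leaving out each library. The members and lists were chosen with earlier results of these data known. Named genes are the 9 members, the most abundant gene per length of each list, up to 2 genes per list with the largest change, a mean of at least 5 CPM and groups that did not overlap, the 3 genes most like each receptor, and the nearest neighbours. RYR1 and GRM4 were named after their values were seen, and the nearest neighbours of members other than ITPR1 and ITPR3 are not described.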

Additional observations from a re-analysis of the deposited data

How the results depend on the processing

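ITPR3 was higher in the variant in all 13 alternatives, with log2 fold changes from 1.19 to 1.82, and MCU was lower in all 13, from −0.22 to −0.12. The groups of both genes did not overlap, so leaving out a library could hardly change these signs. All alternatives used the same counts and are no independent support. For the other 7 members the sign changed in at least 1 alternative. The median over the 9 members, −0.0221, was −0.0658 with GC content and transcript length corrected for and ran from −0.118 to 0.0341 when 1 library was left out. The difference in ITPR3 share stayed between 19.7 and 34.5 points. The number of genes past the threshold, 0 in edgeR's test, was 32 with DESeq2 and 0 to 4 when 1 library was left out, and the cause was not tested. With 1 wild-type library left, that library was assumed to vary like the variant libraries.

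With the replicate number as a block, 0 genes passed the threshold and ITPR3 had a log2 fold change of 1.57. With this block the median over the 9 members was 0.0305, and the ITPR3 share differed by 22.9 points, as without variant 3. Only variant 3 carries number 3, so with the block the group difference rested on the libraries numbered 1 and 2. The block together with the correction for GC content and length gave 1 gene and 1.28 for ITPR3. The labels link same-numbered libraries only by that number. Deviations of same-numbered libraries from their group means correlated by 0.120 for number 1 and by −0.113 for number 2, across 16310 genes. With 2 wild-type libraries, their deviations mirror each other, so these correlations are not separate checks. Whether same-numbered libraries belong together was not tested. Each of the 9 members had at least 303 counts in every library; how depth and the number of libraries limit the precision was not compared.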
